A study of Mus musculus with 6 samples.

Results

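The set described here holds 9 genes of mouse chromosome 11: Xaf1, Slc2a4, Slc22a21, Ccdc92b, Pctp, Tnfsf13os, Wfdc17, Fam161a and Rnf167. They were chosen because their signal was lower in erythroblasts without the miR-144/miR-451 locus, which itself lies on chromosome 11. These 9 genes stand among 1452 measured genes of that chromosome and 18193 measured genes in all, and every probe set annotated to exactly 1 of them was taken, 15 in total. The knockout (KO) group was 3 miR-144/miR-451-null mice, numbered 493, 548 and 551 in the sample titles, and the wild-type (WT) group was 3 mice numbered 497, 504 and 550. In both groups large bone marrow cells carrying the erythroid antigen Ter119 and the transferrin receptor CD71 were sorted into Trizol LS, and the total RNA of each mouse was hybridised to 1 Affymetrix mouse array. Strain, age, litter and the way the null allele was made are not given in the sources used here. Values are log2 intensities after robust multi-array averaging (RMA), in which 1 unit is a doubling of signal, and differences are KO minus WT.

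The locus makes microRNAs that accumulate as red cells mature. A microRNA pairs with messenger RNAs through its seed, near its 5′ end, and usually lowers their abundance, so loss of a microRNA is best known for raising the transcripts it targets; the genes here are instead ones with lower signal. The mature sequences that the KO mice lack are shown to identify the deleted locus, from RefSeq on GRCm38.p6, with the seed (bases 2 to 8) in capitals.
mmu-miR-144-5p, chr11:78073010-78073032, plus strand: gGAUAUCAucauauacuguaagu
mmu-miR-144-3p, chr11:78073047-78073066, plus strand: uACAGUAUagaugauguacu
mmu-miR-451a, chr11:78073186-78073207, plus strand: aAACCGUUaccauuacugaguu

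The sorted cells carried erythroid transcripts at high levels in both groups. Of 10 erythroid markers 8 were measured, and their mean log2 intensities ran from 11.10 (the Rh-associated glycoprotein Rhag) to 13.04 (the band 3 anion exchanger Slc4a1) in KO and from 11.24 to 13.11 for the same genes in WT, against array medians of 5.62 to 5.68 in KO and 5.73 to 5.78 in WT. Limma called 0 of these 8 markers, 0 of them had an unadjusted p under 0.05, and a fit whose prior follows intensity called 0. The shares over all genes were 0.385%, 21.0% and 4.42%, in that order. The erythroid means were nevertheless lower in KO for 7 of the 8, by at most 0.14. Groups were separated with KO lower in 4 of the 8, against 16.2% of all genes. Their summed intensity was 93.2% to 95.5% of the WT mean in KO arrays and 97.9% to 102% in WT arrays, without overlap. Of the controls that compare the ends of a transcript, actin gave 3′ over 5′ log2 differences of 1.82 to 1.86 in KO and 1.65 to 1.67 in WT, without overlap, and the Gapdh values overlapped, at 1.0 to 1.05 in KO and 1.03 to 1.09 in WT. The part of this in the results below was not tested. Because lower KO signal in this same contrast chose the 9 genes, their differences are given as a description, with limma's moderated standard error (SE) and no p-value.

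The brightest probe sets of the 9 genes differed by -3.26 to -0.93, with a median of -1.85, and KO signal was 10.4% (Xaf1) to 52.4% (Rnf167) of WT. The median gene, Tnfsf13os, was dim in KO, so its fold is not exact. With the probe sets of each gene averaged, the median was -1.15 and Xaf1 was at 0.49. In all 9 the 3 KO values lay under the 3 WT values, which the choice of genes fixes; this separation held for 16.2% of all genes. All 9 were also past the adjusted threshold of limma, which 0.148% of all genes passed on the lower side, and nothing is read from that count. The smallest distance between the highest KO and the lowest WT array was 0.74, for Rnf167, and the largest was 2.87, for Xaf1.

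**Figure D1:**
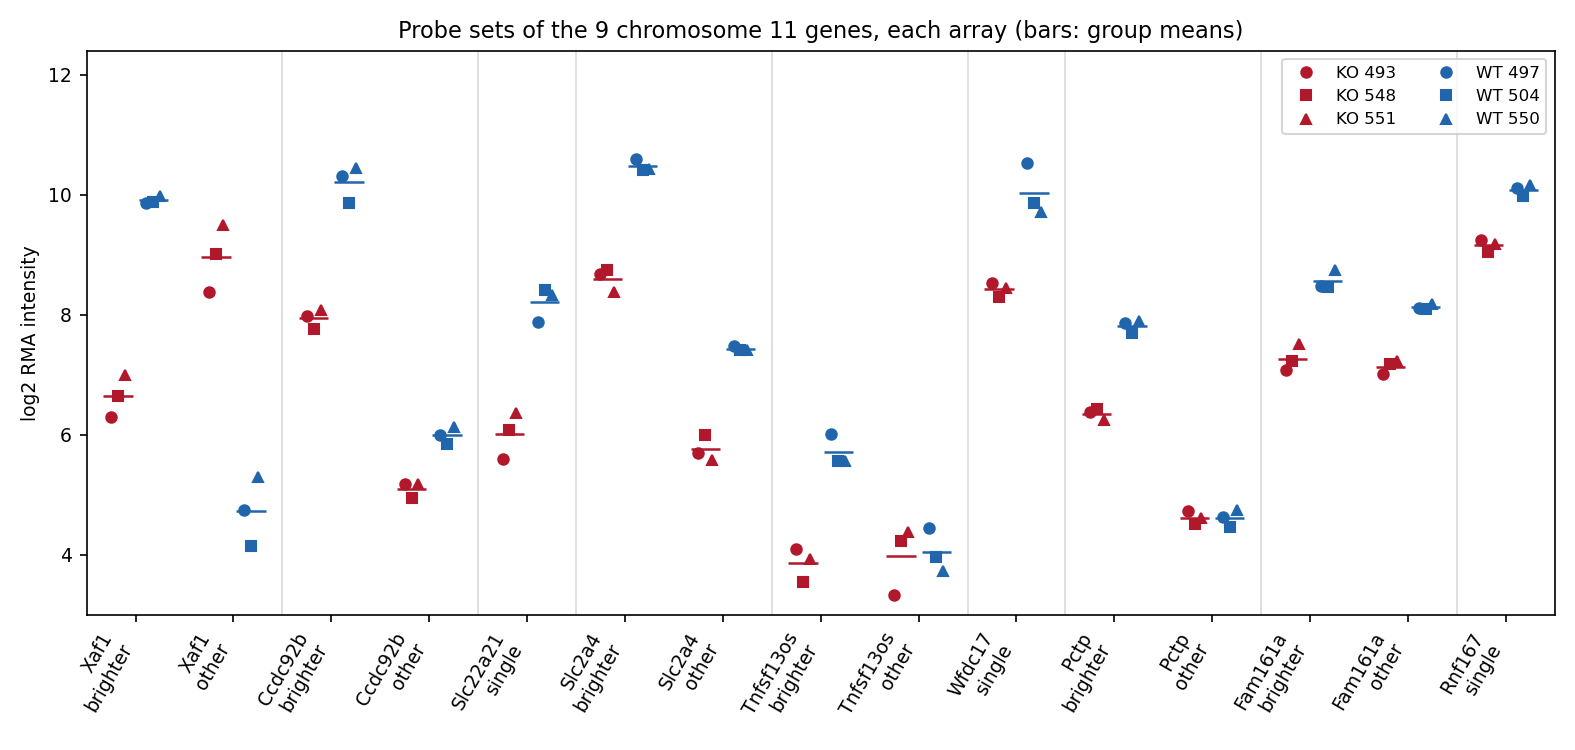
Log2 RMA intensity (vertical axis) of the 15 probe sets of the 9 genes, with 1 point per array, KO left of WT, and a bar at each group mean; brighter and other name the 2 probe sets of a gene. The KO points lie under the WT points in 12 probe sets, overlap them in the dimmer sets of Tnfsf13os and Pctp, and lie above them in the dimmer set of Xaf1.

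Start-site windows of RefSeq (GRCm38.p6, 250 bases before to 50 after the start) were matched for 5 of the 9 genes, with 2 windows for Fam161a. They were read because the 5 genes share lower KO signal in these erythroid cells. The motifs searched on both strands were AGATAA, bound by GATA factors, CCACCC, bound by Kruppel-like factors, the interferon-stimulated response element and TATAAA, the TATA box. Of 32851 windows of the same length these occurred, in that order, in 11.2%, 31.5%, 3.44% and 13.6%. The windows of Pctp, Rnf167, Wfdc17 and Xaf1 held a match and are printed 5′ to 3′ on the gene's strand with matches in capitals; no 2 matches shared a base.
Pctp, chr11:90002845-90003144, minus strand: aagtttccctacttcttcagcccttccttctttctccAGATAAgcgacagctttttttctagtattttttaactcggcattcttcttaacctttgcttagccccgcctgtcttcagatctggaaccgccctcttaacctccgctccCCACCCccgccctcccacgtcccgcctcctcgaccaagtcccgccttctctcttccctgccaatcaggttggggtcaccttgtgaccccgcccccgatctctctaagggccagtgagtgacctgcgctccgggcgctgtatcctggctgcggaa
Rnf167, chr11:70646985-70647284, plus strand: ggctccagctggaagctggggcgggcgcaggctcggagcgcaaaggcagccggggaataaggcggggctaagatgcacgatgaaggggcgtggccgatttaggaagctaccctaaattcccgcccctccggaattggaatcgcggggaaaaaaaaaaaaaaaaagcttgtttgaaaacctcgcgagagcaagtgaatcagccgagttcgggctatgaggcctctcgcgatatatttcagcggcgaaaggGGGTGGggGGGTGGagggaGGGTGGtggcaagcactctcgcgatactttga
Wfdc17, chr11:83703806-83704105, plus strand: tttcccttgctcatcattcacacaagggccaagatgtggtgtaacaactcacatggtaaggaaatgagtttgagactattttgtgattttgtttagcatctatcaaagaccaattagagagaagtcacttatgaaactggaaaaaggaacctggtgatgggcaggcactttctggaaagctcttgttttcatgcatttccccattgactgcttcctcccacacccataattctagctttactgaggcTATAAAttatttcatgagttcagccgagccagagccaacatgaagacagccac
Xaf1, chr11:72301379-72301678, plus strand: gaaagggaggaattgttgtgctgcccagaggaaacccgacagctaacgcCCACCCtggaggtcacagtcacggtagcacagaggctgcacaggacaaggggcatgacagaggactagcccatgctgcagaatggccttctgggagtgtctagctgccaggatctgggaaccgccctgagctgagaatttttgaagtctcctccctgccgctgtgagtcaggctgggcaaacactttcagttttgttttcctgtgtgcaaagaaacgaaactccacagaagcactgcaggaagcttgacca

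The motif AGATAA was found 1 time, in Pctp. The motif CCACCC occurred 1 time in Pctp, 1 time in Xaf1 and 3 times in Rnf167, there as its reverse complement GGGTGG. The TATA box was found 1 time, in Wfdc17. The exact interferon string was found in none of the 6 windows, and looser forms of that element were not searched. The 2 Fam161a windows held none of the 4 motifs. Base composition also differed among the genes: G and C made up 56.7% in Pctp, 57.7% in Rnf167, 54.7% in Xaf1 and 42.0% in Wfdc17, against a median of 52.7% over all windows. The 4 promoters thus shared no single one of these motifs, and a match here describes letters in the window, not binding.

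Both solute transporters of the set were above the array median in WT and dimmer in every KO array. Slc2a4 encodes GLUT4, the insulin-responsive glucose transporter known from muscle and fat. Its brighter probe set, 1415958_at, read 8.67, 8.74 and 8.38 in KO 493, 548 and 551, against 10.59, 10.41 and 10.43 in WT 497, 504 and 550. All KO arrays were low by a similar amount, the groups did not overlap, and the difference was -1.88 ± 0.13 (SE, n = 3 per group). Its other probe set, 1415959_at, read 5.69, 6.0 and 5.58 in KO and 7.48, 7.41 and 7.41 in WT, a difference of -1.68 ± 0.13. The 2 estimates for Slc2a4 were thus 0.20 apart, and KO 551 was the lowest array in both. Slc22a21 encodes the mouse organic cation and carnitine transporter OCTN3. Its single probe set, 1449215_at, read 5.6, 6.08 and 6.36 in KO, against 7.88, 8.41 and 8.33 in WT, a difference of -2.19 ± 0.23. KO 493 was the lowest array of the 6, the groups did not overlap, and KO signal averaged 21.9% of WT.

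Xaf1, an interferon-inducible factor known to antagonise the apoptosis inhibitor XIAP, gave 2 opposite answers. Its brighter probe set, 1443698_at, read 6.29, 6.65 and 7.0 in KO and 9.87, 9.88 and 9.98 in WT, a difference of -3.26 ± 0.18. The other, 1443621_at, read 8.38, 9.01 and 9.49 in KO and 4.74, 4.15 and 5.29 in WT, a difference of 4.23 ± 0.36. Neither pair of groups overlapped, and in both probe sets KO 493 was the lowest KO array and KO 551 the highest. The WT spread of the first was small, an SD of 0.06 against 0.36 in KO, while both groups spread alike in the second (SD 0.56 in KO and 0.57 in WT). Averaging the 2 probe sets gave 0.49, so the array shows no single direction for Xaf1, and its place among genes with lower KO signal rests on 1 probe set.

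Pctp encodes the phosphatidylcholine transfer protein, a carrier that binds 1 phospholipid and moves it between membranes. Its brighter probe set, 1420984_at, read 6.38, 6.43 and 6.24 in KO, against 7.86, 7.69 and 7.90 in WT, and the difference was -1.47 ± 0.11. The KO arrays lay within 0.19 of each other and the WT arrays within 0.21. The other probe set, 1420983_at, was dimmer, at 4.72, 4.51 and 4.61 in KO and 4.63, 4.46 and 4.74 in WT. There the groups overlapped and the difference was 0.00 ± 0.12. Its mean percentile was 31.2 in KO arrays and 29.8 in WT arrays, against 58.5 in KO and 70.8 in WT for the brighter set.

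Tnfsf13os is a long non-coding RNA named for its position opposite Tnfsf13, which encodes the B cell survival ligand APRIL. Its brighter probe set, 1442123_at, read 4.09, 3.55 and 3.93 in KO, against 6.01, 5.56 and 5.56 in WT, a difference of -1.85 ± 0.19. The KO mean of 3.86 was dimmer than the lower quartile of every KO array (4.30 to 4.34), so the KO side of this difference sat near the bottom of the scale. The other, 1445227_at, read 3.32, 4.22 and 4.37 in KO and 4.44, 3.96 and 3.73 in WT, with overlapping groups and a difference of -0.07 ± 0.31. No probe set was annotated to Tnfsf13 alone. One shared by Tnfsf13, Tnfsf12 and their fusion transcript (1418345_at) was at 5.78, 5.42 and 5.81 in KO and 6.93, 6.57 and 5.93 in WT, a difference of -0.81 ± 0.26 that limma did not call (adjusted p = 0.174).

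Ccdc92b, named for a coiled-coil domain, had 2 probe sets that were both lower in KO but by different amounts. The brighter, 1433673_at, read 7.98, 7.76 and 8.07 in KO and 10.31, 9.87 and 10.45 in WT, a difference of -2.27 ± 0.18. The dimmer, 1441143_at, read 5.18, 4.94 and 5.17 in KO and 5.99, 5.84 and 6.13 in WT, a difference of -0.89 ± 0.13. In both, KO 548 was the lowest KO array and WT 504 the lowest WT array, and neither pair of groups overlapped.

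Fam161a and Rnf167 had the smallest differences of the 9. Fam161a encodes a microtubule-binding protein of the ciliary base and centriole, and loss of the human gene causes retinal degeneration. Its probe set 1443569_at read 7.07, 7.22 and 7.51 in KO, against 8.47, 8.46 and 8.75 in WT, a difference of -1.29 ± 0.15. The second, 1451653_a_at, read 7.01, 7.17 and 7.22 in KO and 8.11, 8.10 and 8.18 in WT, a difference of -1.0 ± 0.10. The 2 sets agreed to within 0.30 and ordered the KO arrays alike, with KO 493 lowest and KO 551 highest. Rnf167 encodes a membrane-bound RING ubiquitin ligase of endosomes and lysosomes. Its single probe set, 1430527_a_at, read 9.24, 9.04 and 9.18 in KO and 10.12, 9.98 and 10.16 in WT, a difference of -0.93 ± 0.11. This left KO signal at 52.4% of WT, the smallest difference of the set, with arrays of each group within 0.20 of each other.

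Wfdc17 encodes a small secreted protein of the whey acidic protein (WAP) four-disulfide core family, known from activated macrophages and microglia. Its single probe set, 1436530_at, read 8.53, 8.30 and 8.44 in KO, against 10.53, 9.86 and 9.71 in WT, a difference of -1.61 ± 0.22. WT 497 stood above the other WT arrays, so the WT spread (SD 0.44) exceeded that in KO (SD 0.12), but the groups did not overlap. Without WT 497 the difference was -1.36. Because Wfdc17 is a myeloid gene, the markers of blood cells other than erythroblasts are given beside it, and in bulk RNA fewer cells of a type and less RNA per cell cannot be told apart. All 10 macrophage markers had lower means in KO. Their summed intensity was 75.1% to 81.3% of the WT mean in KO arrays and 91.9% to 108% in WT arrays, while Wfdc17 itself was at 29.1% to 34.2% in KO and 77.4% to 137% in WT. Neutrophil markers stood at 83.0% to 92.7% in KO and 96.5% to 105% in WT, with 9 of 9 lower, and eosinophil, basophil and mast cell markers at 54.3% to 61.8% in KO and 76.5% to 132% in WT, with 7 of 7 lower. B lineage markers were lower in 8 of 9 (56.8% to 75.8% in KO, 78.4% to 136% in WT) and T and NK markers in 8 of 9 (50.5% to 70.3% in KO, 85.3% to 116% in WT). Megakaryocyte markers overlapped, at 92.0% to 113% in KO and 97.9% to 104% in WT, with 4 of 9 lower. A sum of linear intensities is set mostly by the brightest markers of a list. Among neutrophil markers the brightest, S100a8 and S100a9, differed by -0.10 and -0.07, and the dimmest, Elane and Fcnb, by -0.86 and -0.91. Limma called none of the markers in these 6 lists, against 0.385% of all genes. In the order given, 4, 3, 6, 6, 2 and 0 members had an unadjusted p under 0.05, where 21.0% of all genes did. Fitting a trend of variance on intensity called 1 marker, the eosinophil peroxidase gene Epx, against 4.42% of all genes. Among macrophage markers the complement gene C1qb averaged 11.32 in KO and 11.51 in WT, and the dimmest, Siglec1, averaged 5.61 in KO and 5.69 in WT, about the array medians. Some markers of the other lists lay under the array medians in both groups. Among them were Cd3g (4.45 in KO, 4.67 in WT), Ncr1 (4.76 and 4.69) and Pax5 (5.20 and 5.16). WT 497 was the highest array for Wfdc17 and for 5 of the 6 lists of other cells, all but the megakaryocyte list in which KO 548 was highest. The part of these cells in the Wfdc17 difference was not tested.

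**Figure D2:**
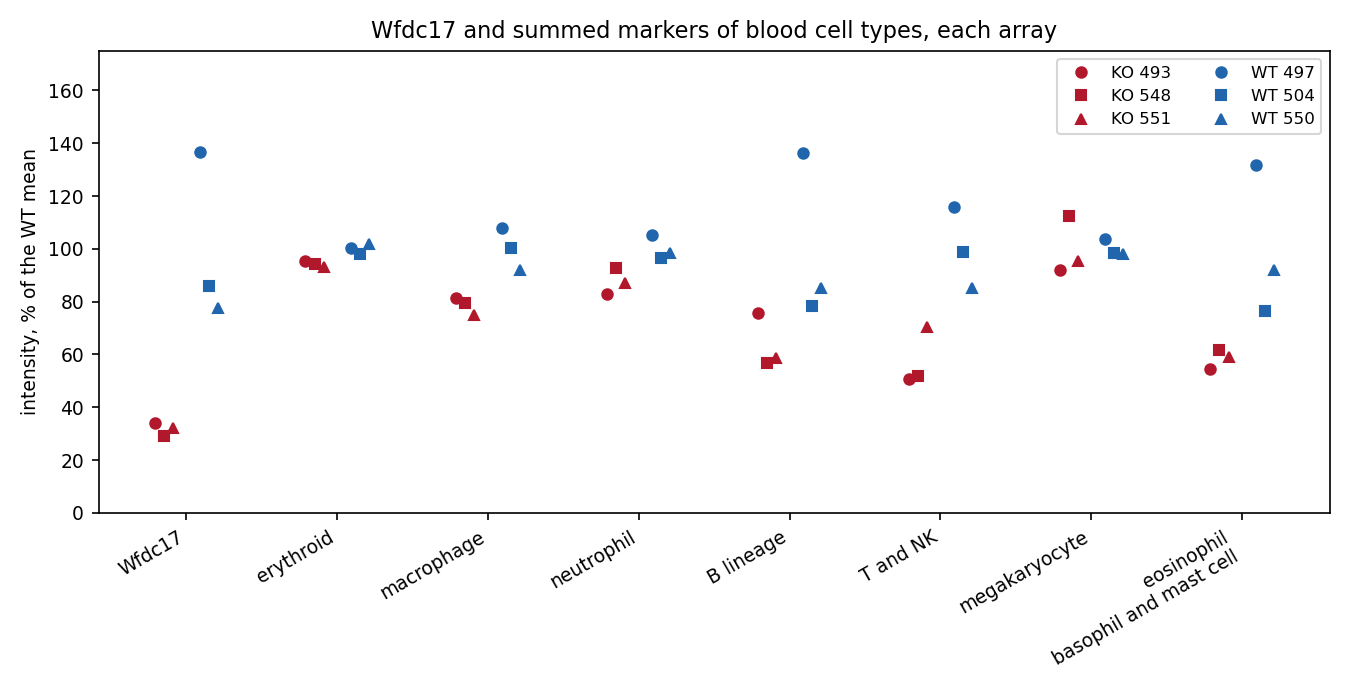
Linear intensity of Wfdc17 and summed linear intensity of the markers of 7 blood cell classes (horizontal axis) as a percentage of the mean of the 3 WT arrays (vertical axis), with 1 point per array and KO left of WT. Wfdc17 lies at 29.1% to 34.2% in KO arrays, lower than any marker sum there. A sum is set mostly by the brightest markers of its list.

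How far a second probe set bears out the first was compared with all genes measured by exactly 2 probe sets. Of the 6 such genes in the set, 4 had a lower mean in KO in the other probe set too, and in 3, Slc2a4, Ccdc92b and Fam161a, those groups also did not overlap. Of all 4695 genes with 2 probe sets, 812 had a brighter set in which every KO value lay under every WT value. The other set had a lower mean in 77.7% of these 812 and separated groups in 31.9%. Among the 35 genes outside the set whose brighter probe set was separated and at least as low as that of Rnf167, the other probe set was lower in 27, separated in 11, and separated in the opposite direction in 0. Xaf1 had that opposite pattern. Opposite signs as such were common, in 33.2% of the 4695 genes, where most differences were close to 0 and the median gap between the 2 sets was 0.18. The gap of 7.5 between the Xaf1 probe sets was the largest of these genes, ahead of the axonemal dynein gene Dnah2 at 4.51 and Trim12a at 3.32. Xaf1 was also the only one of the 4695 with both sets called in opposite directions.

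**Figure D3:**
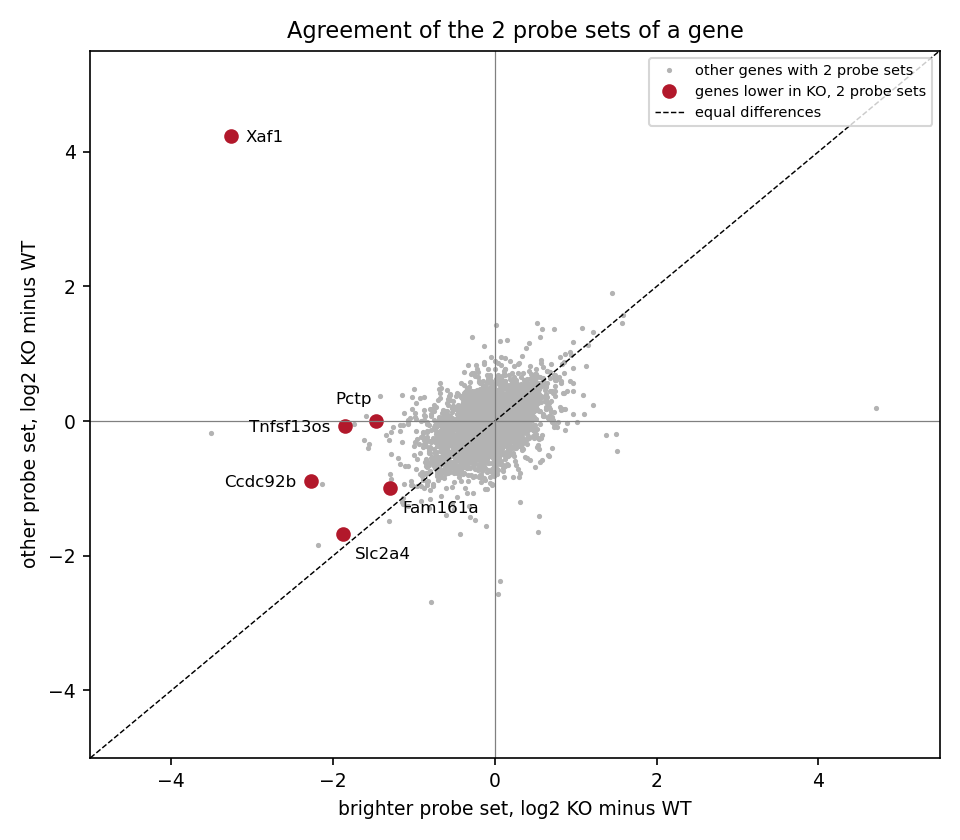
Log2 difference, KO minus WT, in the brighter probe set (horizontal axis) and in the other probe set (vertical axis) of each of 4695 genes with 2 probe sets; the dashed line marks equal differences. Slc2a4 and Fam161a lie near the line, Ccdc92b, Tnfsf13os and Pctp above it, and Xaf1 alone in the upper left corner at -3.26 and 4.23.

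The 9 genes lay on both sides of the locus. In RefSeq gene order 707 measured genes precede the locus and 745 follow it. Before it lay 7 of the 9: Fam161a at 571 measured genes away, Slc22a21 at 383, Tnfsf13os at 169, Slc2a4 at 151, Rnf167 at 120, Xaf1 at 94 and Ccdc92b at 67. Wfdc17 lay 99 genes after the locus and Pctp 172 genes after it. Thus 7 of 9 were within 200 measured genes of the locus, a window that holds 27.5% of the chromosome's measured genes. The 5 from Tnfsf13os to Ccdc92b fell within a stretch of 102 genes. The plan did not set this window, and no clustering is read from these counts. Across the whole chromosome the median difference was -0.04, as over all genes (-0.04), and the 3 KO values lay under the 3 WT values in 17.3% of chromosome 11 genes and 16.1% of genes elsewhere.

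**Figure D4:**
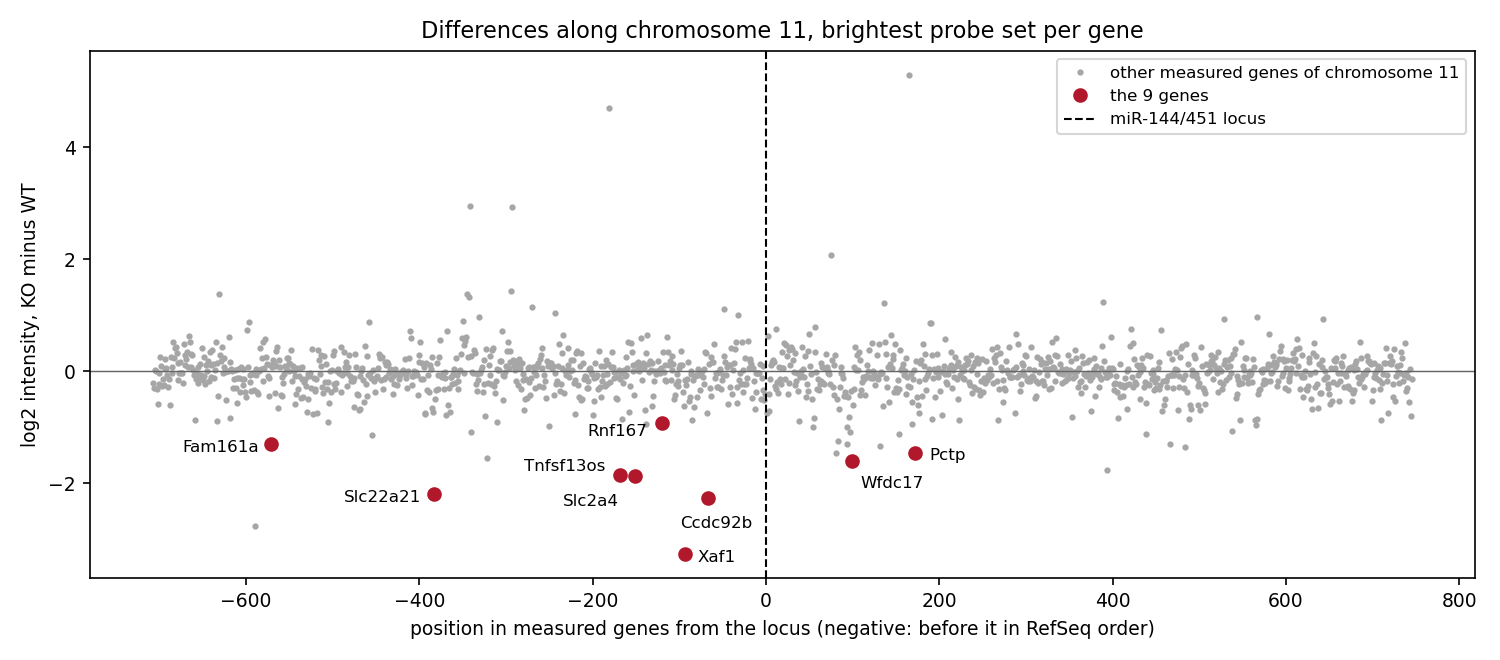
Log2 difference, KO minus WT, of each measured gene of chromosome 11 (vertical axis) by its position in measured genes from the miR-144/miR-451 locus (horizontal axis, dashed line at the locus). The 9 named genes lie at -3.26 to -0.93, between 571 genes before and 172 genes after the locus, in a band of other genes centred near 0.

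Other genes of the chromosome reached similar values without being in the set. A further 21 had a difference at least as low as that of Rnf167, with separated groups in 16 of them. Limma called 1 of the 21, the delta-tubulin gene Tubd1, which read 7.56, 7.21 and 7.43 in KO and 8.75, 8.75 and 8.71 in WT, a difference of -1.34 ± 0.12 (adjusted p = 0.0167). Aoc3, which encodes a vascular amine oxidase, stood just outside the threshold at -1.77 ± 0.25 (adjusted p = 0.0503). In all, chromosome 11 held 11 genes called lower (0.758% of its measured genes, and 1.58% in either direction), the 9 together with Tubd1 and Eral1, a mitochondrial ribosome assembly factor next to the locus (-0.75 ± 0.10, adjusted p = 0.04998), and 12 called higher. The lowest mean difference of any chromosome 11 gene outside the set, that of the signalling inhibitor Spred2 (-2.76 ± 2.21, adjusted p = 0.529), came from 1 array: WT 504 read 13.96, and the other 5 arrays 5.28 to 5.47. Tubd1 was picked by the limma call, and Aoc3 and Spred2 after their values were seen.

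The genes next to each of the 9 were taken from gene order, 5 measured genes on each side, to see whether lower signal extended beyond the named gene. Limma called 0 of these 90 flanking genes at an adjusted p of 0.05, against 0.385% of all genes. With so few genes called anywhere, a count of 0 does not show that lower signal stopped at the named gene. In simulated arrays limma recovered 54 of 100 changes of 1 log2 unit. Of the 90, 27 (30%) had an unadjusted p under 0.05, against 21.0% of all genes. Their median difference was -0.03, their range -1.30 to 0.51, and 49 of 90 had a lower mean in KO. The 3 KO values lay under the 3 WT values in 25 flanking genes (27.8%, against 16.2% of all genes) and above them in 9. Limma with a trend of variance on intensity and a robust prior called 7 of the 90 and 4.42% of all genes. These were Slc22a4, Pafah1b1, Dgke, Trim25, Stxbp4 and Mpdu1, lower, and Pfn1, higher. A filter on dim probe sets left out part of the 90 flanking genes. Of those kept, 2 were called, Slc22a4 and Mpdu1, against 4.39% of the 10752 genes that passed it. With the probe sets of a gene averaged 0 were called, against 0.704%.

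Around Slc2a4, Rnf167, Fam161a and Ccdc92b the neighbours were close to 0, with medians of 0.09, 0.01, 0.08 and 0.08. Slc2a4 lies between Ybx2, a germ cell Y-box protein (-0.43 ± 0.15, adjusted p = 0.206), and the tight junction gene Cldn7 (0.13 ± 0.10, adjusted p = 0.512). Rnf167 lies between the mitochondrial carrier Slc25a11 (0.06 ± 0.11, adjusted p = 0.812) and profilin, Pfn1, which was higher in every KO array than in any WT array at 11.68, 11.70 and 11.63 in KO and 11.33, 11.34 and 11.32 in WT (0.34 ± 0.09, adjusted p = 0.138). Fam161a lies between the chaperonin subunit Cct4 (0.12 ± 0.11, adjusted p = 0.582) and the nuclear exportin Xpo1 (0.07 ± 0.09, adjusted p = 0.734). Ccdc92b follows Rap1gap2, a GTPase-activating protein (-0.75 ± 0.26, adjusted p = 0.193), and precedes the mitochondrial gene Cluh (0.13 ± 0.19, adjusted p = 0.761). Beside Xaf1 stood 1700051A21Rik at 5.17, 5.34 and 5.02 in KO and 5.67, 5.96 and 5.76 in WT (-0.62 ± 0.13, adjusted p = 0.0975) and the sperm filament gene Tekt1 (-0.15 ± 0.14, adjusted p = 0.6). Tnfsf13os stood between the SUMO protease Senp3 (0.03 ± 0.09, adjusted p = 0.9) and Polr2a, the large subunit of RNA polymerase II (-0.13 ± 0.18, adjusted p = 0.717). The median was -0.14 around Xaf1, where 6 of 10 neighbours had a lower mean in KO and 2 were separated and lower. Around Tnfsf13os it was -0.115, with 8 of 10 lower and 3 separated and lower.

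The neighbourhoods of Wfdc17, Pctp and Slc22a21 had lower medians. Around Wfdc17 the median was -0.40 and 6 of 10 neighbours had separated groups with KO lower, and these neighbours are largely chemokine and WAP genes. The macrophage, neutrophil and eosinophil, basophil and mast cell markers above, most of them on other chromosomes, also had lower KO means. The part of such cells in this neighbourhood was not tested. The chemokine genes Ccl9, Ccl3 and Ccl6 were at -1.30, -1.09 and -0.81 (adjusted p = 0.106, 0.155 and 0.144), while the nearest gene on one side, Ccl4, read 5.04, 4.91 and 4.98 in KO and 5.82, 5.23 and 4.94 in WT (-0.35 ± 0.22, adjusted p = 0.416). On the other side stood Wfdc18, a relative of Wfdc17, at 4.72, 5.19 and 5.53 in KO and 5.97, 5.57 and 5.71 in WT (-0.60 ± 0.22, adjusted p = 0.208). Around Pctp the median was -0.32, again with 6 of 10 separated and lower, although its nearest neighbours were not: the BMP antagonist Nog was at 0.03 ± 0.15 (adjusted p = 0.935) and Tmem100 at 0.18 ± 0.11 (adjusted p = 0.399). Around Slc22a21 the median was -0.19 with 4 of 10 separated and lower. Its 2 nearest neighbours are its paralogs: Slc22a5, the carnitine transporter OCTN2, read 6.76, 7.47 and 7.51 in KO and 7.86, 7.89 and 8.19 in WT (-0.73 ± 0.22, adjusted p = 0.161), and Slc22a4, the ergothioneine transporter OCTN1, read 9.74, 9.61 and 9.59 in KO and 10, 10.24 and 10.20 in WT (-0.50 ± 0.11, adjusted p = 0.108). Slc22a4 was called with the intensity trend (adjusted p = 0.0295) and the level filter (adjusted p = 0.047). Probes of such relatives can share targets, and this was not tested.

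**Figure D5:**
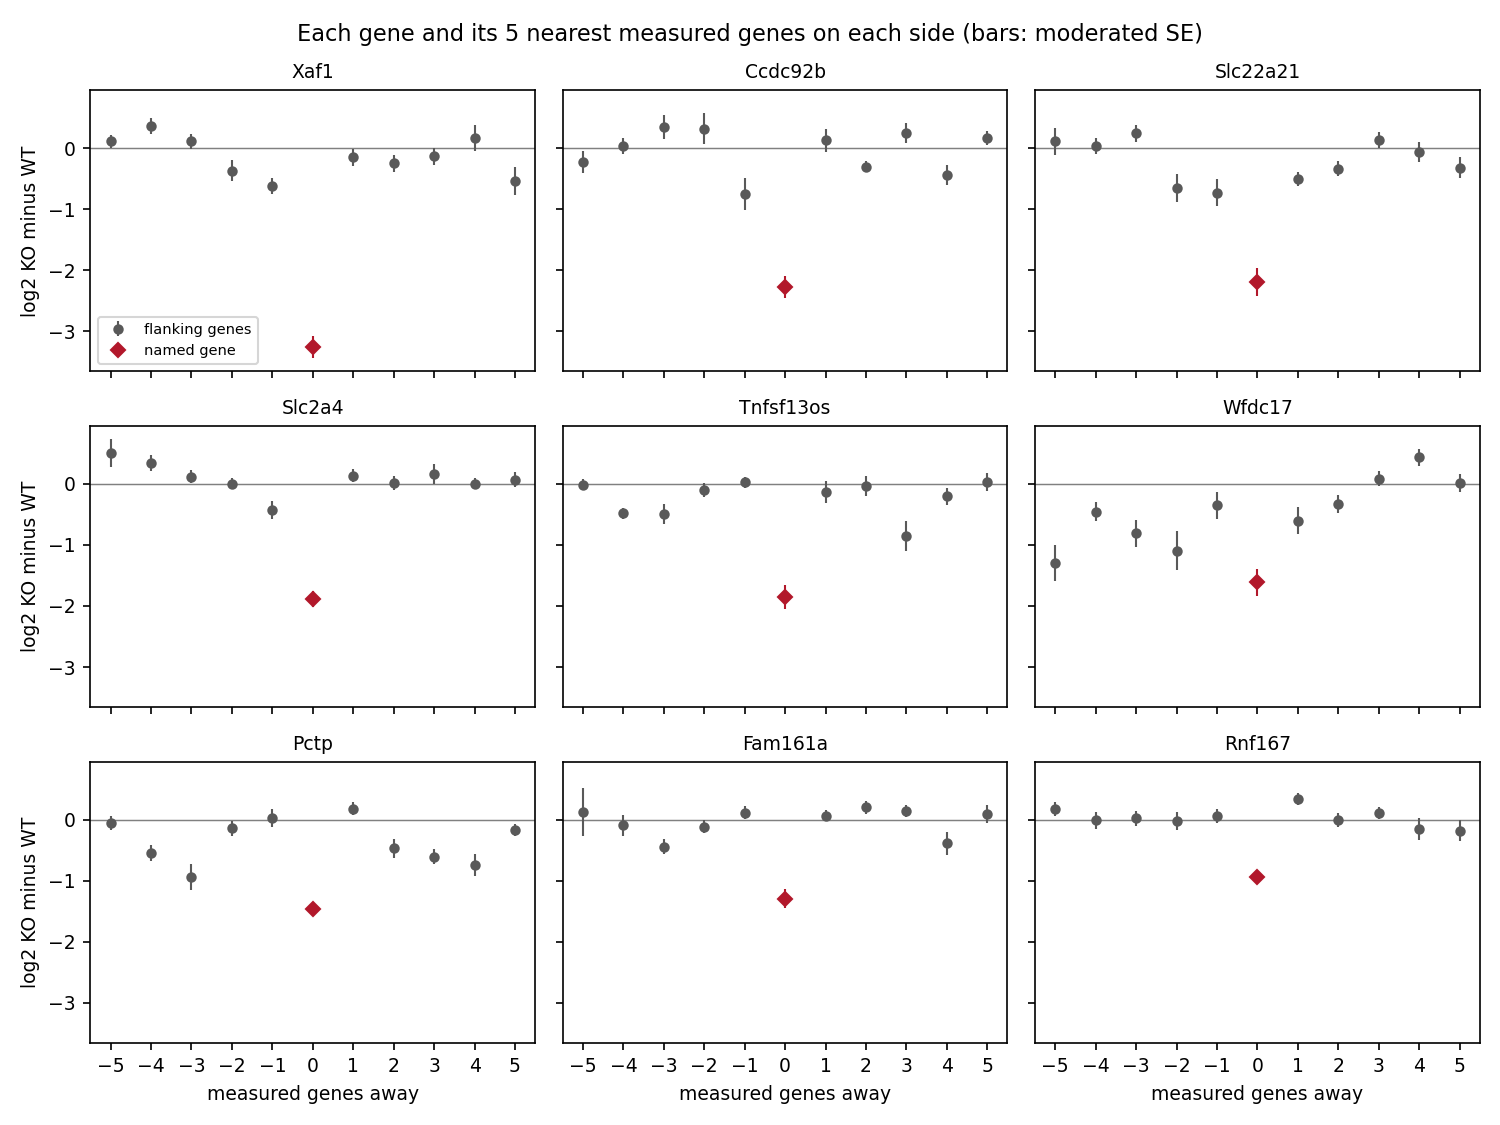
Log2 difference, KO minus WT (vertical axis), of each of the 9 genes (red, at 0) and of its 5 nearest measured genes on each side (grey), by distance in measured genes (horizontal axis); bars are moderated standard errors. Each red point lies under its 10 grey neighbours, and the neighbours around Wfdc17 and Pctp lie lower than those around Rnf167 and Fam161a.

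Relatives and pathway partners of the 9 genes were read from 11 lists with 122 measured genes, none of them a member. Limma called 0 of the 122, against 0.385% of all genes, and the intensity trend called 9, against 4.42% of all genes. An unadjusted p under 0.05 was reached by 32, against 21.0% of all genes, and the median difference was -0.09. For glucose transport, 10 other members of the Slc2a family had a median of -0.03 with 2 at an unadjusted p under 0.05 and 0 called with the trend. The endosomal transporter Slc2a6 was at -0.65 ± 0.20 (adjusted p = 0.163) and the urate transporter Slc2a9 at -0.28 ± 0.10 (adjusted p = 0.205). Of 13 genes of GLUT4 trafficking (median -0.13, 3 at an unadjusted p under 0.05, 0 with the trend) the sorting receptor Sort1 was at -0.62 ± 0.15 (adjusted p = 0.114) and the Rab GTPase-activating protein Tbc1d1 at -0.67 ± 0.19 (adjusted p = 0.152).

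Among 10 other members of the Slc22 family, listed as relatives of Slc22a21 and not by shared substrate, the median was -0.28. An unadjusted p under 0.05 was reached by 4, and 2 were called with the trend, Slc22a4 and Slc22a17 (-0.65 ± 0.11, adjusted p = 0.0687 without the trend). The 9 measured genes of carnitine synthesis and shuttling had a median of 0.09, with 1 at an unadjusted p under 0.05 and 0 with the trend; carnitine palmitoyltransferase Cpt2 was at 0.36 ± 0.14 (adjusted p = 0.224) and the neuronal form Cpt1c at 0.24 ± 0.16 (adjusted p = 0.451). Of 14 START domain lipid transfer genes, relatives of Pctp with a median of -0.16, 5 reached an unadjusted p under 0.05. Those called with the trend were 2, Stard10 and Stard7, both higher. Stard10, another phospholipid transfer protein, was at 0.52 ± 0.10 (adjusted p = 0.0809) and the acyl-CoA thioesterase Acot11 at -0.75 ± 0.20 (adjusted p = 0.133).

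For Xaf1, 11 inhibitor of apoptosis genes and their antagonists had a median of -0.06. Of these, 2 had an unadjusted p under 0.05 and were also called by the trend. They were the NLR family genes Naip6 (-1.18 ± 0.20, adjusted p = 0.0716) and Naip2 (-0.75 ± 0.15, adjusted p = 0.0845). Their relative Naip5 was at -0.80 ± 0.42 with overlapping groups (adjusted p = 0.342). Whether probes of these relatives share targets was not tested. Of 12 interferon-inducible genes the median was -0.37, 7 reached an unadjusted p under 0.05, and 1, Rsad2, was called with the trend. The ISG15 protease Usp18 was at -0.93 ± 0.24 (adjusted p = 0.127) and Stat2 at -0.38 ± 0.11 (adjusted p = 0.146). Groups were separated with KO lower in 6 of the 12, against 16.2% of all genes, and with KO higher in 2, the antiviral synthetase Oas1a (0.91 ± 0.32, adjusted p = 0.194) and the RNA sensor Ifih1 (0.40 ± 0.12, adjusted p = 0.165), named after their values were seen. The list left out interferon-inducible GTPases of chromosome 11. Of these, limma called Igtp (1.33 ± 0.13, adjusted p = 0.023) and Irgm2 (2.95 ± 0.16, adjusted p = 0.0042) higher. Irgm1 (-0.14) and Ifi47 (-0.18) were not called. The 12 WAP family genes related to Wfdc17 had a median of -0.20, with 5 at an unadjusted p under 0.05 and 2 called with the trend, Wfdc3 (-1.35 ± 0.21, adjusted p = 0.0626) and the leukocyte protease inhibitor Slpi (-0.52 ± 0.12, adjusted p = 0.112).

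The 13 TNF ligands had a median of -0.11, with 1 at an unadjusted p under 0.05, the B cell factor Tnfsf13b (-0.69 ± 0.29, adjusted p = 0.248), followed by Tnfsf14 (-0.25 ± 0.14, adjusted p = 0.388). The 11 RING ligases with a protease-associated domain, as in Rnf167, had a median of -0.01; Rnf215 was at 0.43 ± 0.13 (adjusted p = 0.158) and Rnf148 at 0.33 ± 0.14 (adjusted p = 0.264), and 1 had an unadjusted p under 0.05. The 7 centriolar and ciliary partners listed for Fam161a had a median of -0.01 with 1 at an unadjusted p under 0.05, Poc1b (0.41 ± 0.10, adjusted p = 0.123), and Ofd1 at -0.27 ± 0.16 (adjusted p = 0.398). The trend fit called 0 genes in these last 3 lists.

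The arrays of a group did not share 1 order across the 9 genes. KO 548 was the lowest KO array for 4 of them (Ccdc92b, Rnf167, Tnfsf13os and Wfdc17), KO 493 for 3 (Xaf1, Slc22a21 and Fam161a) and KO 551 for 2 (Slc2a4 and Pctp). The SD was larger in KO than in WT for 6 of the 9. The genes outside the set with the profile closest to the mean centred profile of the 9, by root mean square difference over the 6 arrays, were 2500002B13Rik (0.202), Rsph9, a radial spoke gene (0.202), 9630013D21Rik (0.214), the neurotrophic factor gene Artn (0.217) and Tubd1 (0.288). Tubd1 lies on chromosome 11 and the other 4 on chromosomes 8, 17, 4 and 4. The differences of these 5 genes were -1.66 to -1.34.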

How the data were processed

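RNA of sorted erythroblasts from 3 KO and 3 WT mice was measured on 6 arrays. The deposited intensity values were made by the authors with RMA, per the submitters' processing notes; software, version and background step are not given in the sources used here. RMA usually evens out the overall distribution between arrays, which can hide a change common to most transcripts. The deposited array medians were not fully even, at 5.62 to 5.68 in KO and 5.73 to 5.78 in WT. The deposited values were linear, the lowest was 1, and 100% could be written, to the decimals deposited, as 2 raised to a number with 2 decimals, so they were returned to log2 with no pseudocount or further normalization. After 64 controls were left out, 45037 probe sets were tested by limma (version 3.58.1, under R 4.3.3), using lmFit and eBayes with group as the single term. P-values were adjusted by Benjamini-Hochberg over all of them, with a threshold of 0.05; the script was tested on simulated data.

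GEO's platform annotation named 1 gene for 34945 probe sets and several for 932, which named none. Identifiers matched RefSeq genes (GRCm38.p6) for 99.1% of genes; that table gave symbols and gene order only. The brightest probe set, by its mean over the 6 arrays, stands for a gene. A called gene had an adjusted p under the threshold there. The number of arrays limits precision. The genes, lists and rules were chosen with earlier results of these data known. Text names all 9 genes, nearest and called neighbours, and per list called genes or the 2 with the smallest p; names outside this rule were added after their values were seen. Alternatives were renewed normalization, trend and robust prior, a level filter, probe-set averaging, array centring, other windows and leaving out each mouse.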

Additional observations from a re-analysis of the deposited data

How the results depend on the processing

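The number of genes called over the whole array was 70, and it was 804 with an intensity trend and robust prior, 472 with the level filter (probe sets brighter than the median), 14, 5 and 13 without KO 493, 548 or 551 and 13, 13 and 9 without WT 497, 504 or 550, where fewer arrays were fitted. The count of 0 called flanking genes was 7 with the trend, 2 with the level filter and 1 with 10 genes on each side, where the added gene was Elobl near Pctp (5.30, adjusted p = 0.00166); it stayed 0 under both renewed normalizations, with 3 genes on each side, with averaged probe sets and without any 1 mouse. The count of 0 called related genes was 9 with the trend (4.42% of all genes were called) and 6 with the level filter (4.39% of genes passing it). It stayed 0 without any 1 mouse and under both normalizations. Averaging probe sets moved the median difference of the 9 genes to -1.15, and it turned Xaf1 to 0.49 because its probe sets are opposite. Under that averaging Ccdc92b was at -1.58, Pctp at -0.73 and Tnfsf13os at -0.96. Centring each array on its median raised differences by 0.11, to -1.36 for Pctp and -0.82 for Rnf167. Of 87 alternative values of single members that could differ by construction, 81 moved by less than the spread between replicates, 5 moved more with the same sign, and 1, Xaf1, reversed. Leaving out 1 mouse could not reverse any member, because in each brightest probe set every KO value lay under every WT value. The median of the 9 genes then lay between -1.92 and -1.70. None of the member probe sets ended in _x_at or _s_at, so leaving such sets out changed no member value. No paired analysis was possible because the sources used here give no litter or pairing of the KO and WT mice. Dim signal limits both probe sets of Tnfsf13os.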
